A study of Mus musculus with 10 samples.

Results

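Trh and Enpp2 are 2 of the 24520 genes in the table. They were chosen by their RPKM in cells labelled NPCs, which was lower after each of 2 siRNAs, against Cbx3 and against Med26, than after a control siRNA. Trh encodes the precursor of thyrotropin-releasing hormone (TRH), and Enpp2 encodes autotaxin, a secreted enzyme. The values that chose them are given as a description, without a test. RPKM scales the reads of a gene to transcript length and to library depth, and each gene was read from its RefSeq row with the highest mean. Both genes passed the filter on low values that left 11956 genes for testing.

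The study asks how Cbx3, which encodes the heterochromatin protein HP1 gamma, bears on lineage while mouse cells turn neural, and it also lowers Med26, a subunit of the Mediator complex of transcription. All 10 libraries come from the mouse embryonic stem cell (ESC) line V6.5, cultured on irradiated fibroblast feeders with leukemia inhibitory factor. ESCs received a control siRNA, whose target the labels do not name, or a siRNA against Cbx3. NPCs were made from the same line through 4 days of embryoid bodies and plating in ITSF medium, received the control siRNA, the Cbx3 siRNA or the Med26 siRNA on day 5, and gave RNA on day 8. The 5 groups hold 2 libraries each, which the labels call biological replicates without saying what separates them, so p-values measure the spread between these samples only. Both siRNA arms rest on a transient knockdown in 1 cell line.

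TRH is cut from its precursor in the regulated secretory pathway by the prohormone convertases Pcsk1 and Pcsk2, trimmed by carboxypeptidase E and amidated by Pam. In the hypothalamus it drives the release of thyrotropin through the receptor Trhr, and thyroid hormone in turn represses the Trh gene. Autotaxin is a lysophospholipase D that turns lysophosphatidylcholine into lysophosphatidic acid (LPA) and choline, and LPA acts through a family of G protein-coupled receptors. In mice, embryos without Enpp2 die with failed blood vessel and neural tube development.

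The precursor carries TRH several times over, and the mouse Trh transcript shows this as repeated codons. The transcript of GENCODE M21 on GRCm38 has 3 exons, 1384 bases and 256 codons before the stop, and it holds 5 in-frame runs of codons for Gln-His-Pro-Gly. Among 21877 protein-coding genes searched, 900 had at least 1 such run in any frame, 23 had at least 2 in the same frame, and 1, Trh, had 5. The 5 runs are shown because each is a copy of the hormone that the measured RNA encodes. Capitals mark the 12 bases of the run, and 6 bases are given on either side.
Copy 1, at codon 77: aaacgcCAGCATCCGGGCaaaagg
Copy 2, at codon 109: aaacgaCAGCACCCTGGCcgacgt
Copy 3, at codon 154: aagcggCAGCACCCTGGCaggcga
Copy 4, at codon 172: aagaggCAGCATCCAGGCcggagg
Copy 5, at codon 203: aaacgtCAGCATCCTGGCaaaagg
In the precursor, each copy is known to be cut out at pairs of basic residues on either side.

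The RefSeq promoter table holds Trh and gave 1 of the 2 genes. The 250 bases before the Trh start are printed because the letters TGACCTCA in it are those known from the TRH promoter as a site of repression by thyroid hormone receptor. They lie on chr6:92244651-92244900, minus strand, build GRCm38.p6, and capitals mark TGACCTCA and the TATA letters.
Trh promoter: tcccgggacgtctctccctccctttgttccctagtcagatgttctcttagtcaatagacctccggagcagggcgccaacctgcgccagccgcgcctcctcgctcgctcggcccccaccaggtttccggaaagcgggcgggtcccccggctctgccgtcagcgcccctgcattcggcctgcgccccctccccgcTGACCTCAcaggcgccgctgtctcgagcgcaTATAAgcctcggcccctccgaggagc
Both strands of this window were searched. TGACCTCA began at -57 on the printed strand and was held by 1.94% of the 32851 promoters of this length. It contains the half-site TGACCT, which 14.0% of promoters hold. TATAA began at -26 (22.8% of promoters) and GGGCGG, the core of a GC box, at -117 (32.7%). The full cyclic AMP response element TGACGTCA was not among the letters of this window (1.55% of promoters). TGACCTCA differs from it by 1 letter, and other forms of the element were not searched. These matches describe letters only.

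Some facts of the whole series bear on both genes. Each library's steps among low values correspond to about 23.3 to 63.8 M reads. On that estimate Trh rested on roughly 510 to 7800 reads per library and Enpp2 on 73 to 4100. The targeted genes were checked first. For Cbx3, NPC control libraries held 9.37 and 9.65 RPKM, against 0.425 and 0.248 RPKM with Cbx3 siRNA and 7.87 and 7.93 RPKM with Med26 siRNA. The ESC control libraries held 14.0 and 56.4 RPKM, and ESCs with Cbx3 siRNA 1.01 and 1.96 RPKM. Med26 was 7.56 and 6.78 RPKM in NPC control, 3.04 and 3.07 RPKM with its siRNA, and 5.61 to 7.42 RPKM in the other libraries. In NPCs Cbx3 fell by 2.98 on the log2 scale after Cbx3 siRNA (limma, adjusted p = 0.000172) and Med26 by 1.01 after Med26 siRNA (adjusted p = 0.00398). The 2 ESC libraries of each group stood far apart, so ESC values of Trh and Enpp2 are given library by library. Markers of other cell types were mixed. Of 6 choroid plexus markers, 4 stayed under 1 RPKM in every library, Ttr and Kcne2 among them (at most 0.0431 RPKM), but Folr1 reached 29.6 to 71.5 RPKM and rose after both siRNAs (0.72, adjusted p = 0.00563, and 0.48, adjusted p = 0.0185). Of 7 oligodendrocyte lineage markers, Mog did not exceed 0.401 RPKM, while Olig1, Olig2 and Cnp reached 8.46, 7.86 and 7.13 RPKM. Of 6 endothelial markers, Emcn was listed at 0 in all libraries and Cdh5 did not exceed 0.112 RPKM, while Pecam1 reached 9.57 RPKM. The part of such cells in the levels of Trh and Enpp2 was not tested.

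Trh RNA in NPCs was far below its control level after either siRNA. The NPC control libraries held 50.4 and 55.5 RPKM. The libraries with Cbx3 siRNA held 12.9 and 12.7 RPKM, and those with Med26 siRNA 10.3 and 11.5 RPKM. All 4 knockdown libraries lay below both control libraries, on the values that chose the gene. The group means were 53.0 ± 3.6, 12.8 ± 0.12 and 10.9 ± 0.81 RPKM (mean ± SD, n = 2), so that 24.1% and 20.6% of the control level were left. On the scale of log2(RPKM + 1), the difference from control was -1.97 (standard error 0.08) after Cbx3 siRNA and -2.18 (0.08) after Med26 siRNA. Trh stood second among the 11956 genes tested, ordered from the largest fall after Cbx3 siRNA, where the target Cbx3 itself was first, and stood first after Med26 siRNA. In bulk RNA, fewer cells that make Trh and less Trh RNA per cell cannot be told apart.

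Enpp2 was lower after both siRNAs as well, and lowest after Med26 siRNA. It was 22.2 and 24.1 RPKM in NPC control. It was 11.5 and 11.0 RPKM after Cbx3 siRNA and 7.60 and 7.15 RPKM after Med26 siRNA. The means of 23.1 ± 1.3, 11.3 ± 0.39 and 7.37 ± 0.32 RPKM left 48.7% and 31.9% of the control level. The groups did not overlap, on values that chose the gene. How many of all genes separate in this way, at 2 libraries a group, was not counted for this or later comparisons. The log2 differences from control were -0.98 (standard error 0.07) and -1.53 (0.07), the 8th and the 4th largest falls of the 11956 genes tested.

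**Figure D1:**
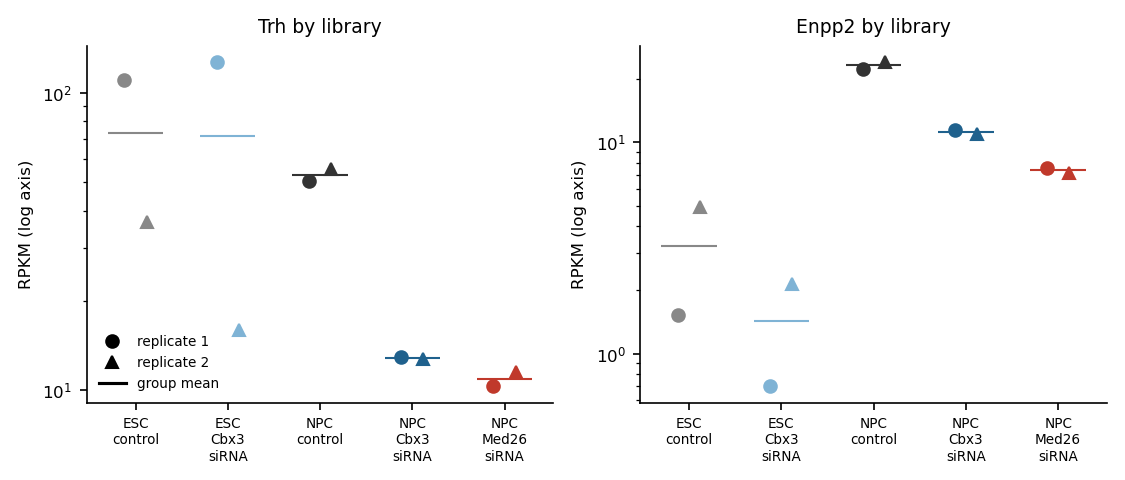
RPKM of Trh (left) and Enpp2 (right) in each of the 10 libraries, on a log axis, by group. Circles are replicate 1, triangles replicate 2 and lines group means; the 4 NPC knockdown libraries lie below both NPC control libraries for each gene, and the ESC replicates lie far apart.

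Both knockdowns are set against the same 2 NPC control libraries, so the 2 differences are not independent. Of the 11956 genes tested, 13.1% passed (adjusted p under 0.05) after Cbx3 siRNA and 13.4% after Med26 siRNA, in either direction. Lower after both at that threshold were 155 genes, 1.3% of those tested, and Trh and Enpp2 are among them by their choice. Ordered by the smaller of their 2 falls, Trh came first (-1.97) and Enpp2 next (-0.98). At a pseudocount of 1, Trh was the 1 gene lower by at least 1 log2 unit after both siRNAs, and Enpp2 lay just outside this bound. At a pseudocount of 0.1 Enpp2 was inside it (-1.03 and -1.64), as with its rows summed (-1.02 and -1.62).

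The genes that followed in this order were lower by less. Dcxr, which encodes a dicarbonyl and xylulose reductase, differed by -0.87 after Cbx3 siRNA and -0.74 after Med26 siRNA. Ssbp4, of the single-stranded DNA-binding protein family, differed by -0.71 and -0.72. Pde2a, a cyclic nucleotide phosphodiesterase, differed by -0.78 and -0.68, and Rims4, a gene of the synaptic active zone family, by -0.66 and -0.65. Cbs, the cystathionine synthase of sulfur amino acid metabolism, differed by -0.65 and -0.71, and the kinase gene Sbk1 by -0.64 and -0.67. The other 2 of the first 10 were the small nucleolar RNAs Snord110 and Snora15, with smaller falls of -0.72 and -0.68 and means of 1.25 and 0.637 RPKM in NPC control.

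**Figure D2:**
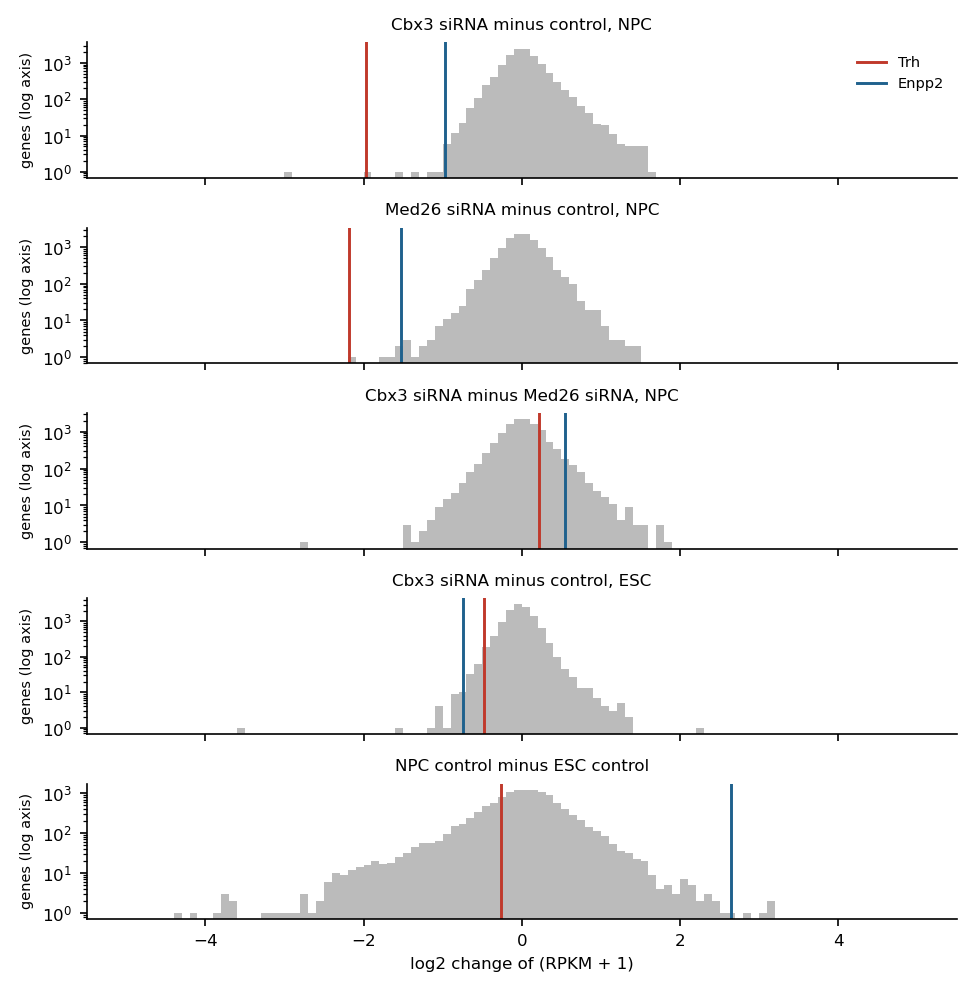
Histograms of the log2 change of (RPKM + 1) of all 11956 genes tested in each of 5 comparisons, with the number of genes on a log axis; red and blue lines mark Trh and Enpp2. Both genes lie at the far lower end in the first 2 panels, which chose them, and Enpp2 lies near the upper end in the last panel, at 2.64.

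The 2 siRNAs were compared with each other directly, a contrast that leaves the control libraries out, though the same knockdown libraries helped to choose the genes. Enpp2 was higher after Cbx3 siRNA than after Med26 siRNA, by 0.55 on the log2 scale (standard error 0.07, 95% interval 0.38 to 0.72, limma adjusted p = 0.00596 in the 6 NPC libraries). Both Cbx3 siRNA libraries lay above both Med26 siRNA libraries, and the call held without any 1 of the 6 libraries (adjusted p from 0.0145 to 0.0402). Fitted with the ESC libraries included, the same difference did not pass (adjusted p = 0.644). For Trh the difference was 0.21 (standard error 0.08, 95% interval 0.03 to 0.39) and did not pass (limma adjusted p = 0.103). Its libraries stood at 12.9 and 12.7 RPKM after Cbx3 siRNA and at 10.3 and 11.5 RPKM after Med26 siRNA. In this contrast 18.3% of all genes passed.

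ESCs gave libraries that the choice of genes did not use. In ESC control, Enpp2 stood at 1.52 and 4.95 RPKM. With Cbx3 siRNA it stood at 0.699 and 2.14 RPKM. The 2 groups overlapped, since 1 control library lay below 1 knockdown library. Each Cbx3 siRNA library lay below the control library of the same replicate number, but the labels do not say what a number marks. A fit that pairs these numbers is given at the end. The means were 3.23 ± 2.4 and 1.42 ± 1.0 RPKM, a log2 difference of -0.75 (standard error 0.40, 95% interval -1.68 to 0.19) that did not pass (limma on all 10 libraries, adjusted p = 1).

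In ESC control, Trh stood at 110 and 36.9 RPKM. With Cbx3 siRNA it stood at 127 and 15.9 RPKM. The knockdown libraries thus held both the highest and the lowest Trh level of the 4. The log2 difference was -0.48 (standard error 0.86, 95% interval -2.48 to 1.51) and did not pass (adjusted p = 1). It was 0.98 without the ESC Cbx3 siRNA library of replicate 2 and 0.29 without the ESC control library of replicate 1, so its sign rested on single libraries. Of all genes, 0.0% passed in this comparison, with 645 at unadjusted p under 0.05 (limma). The interval for Trh includes both no change and a fall as large as in NPCs. The ESC standard errors of Trh and Enpp2 pool the close NPC libraries with the ESC ones, so they understate the ESC spread. On the log2 scale, the libraries of control and of Cbx3 siRNA lay 1.55 and 2.92 apart for Trh, and 1.24 and 0.89 for Enpp2. Taken as values, the Cbx3 effect in NPCs minus that in ESCs was -1.48 (standard error 1.21) for Trh and -0.23 (0.57) for Enpp2.

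Within ESCs the 2 genes ran in opposite directions between replicates. Trh was 2.98 times as high in control replicate 1 as in replicate 2, and 7.99 times as high after Cbx3 siRNA. Enpp2 was 3.24 times as high in control replicate 2 as in replicate 1, and 3.06 times as high after Cbx3 siRNA. The ratio of Trh to Enpp2 RPKM was 72.2 and 181 in the replicate 1 libraries and 7.47 and 7.41 in those of replicate 2.

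Markers of pluripotent state moved with this split. The 7 naive pluripotency markers, all above 1 RPKM in at least 1 library, summed to 237 and 252 RPKM in the ESC libraries of replicate 1 and to 114 and 127 RPKM in those of replicate 2. Esrrb was 53.4 and 58.0 against 13.7 and 16.2 RPKM, and Klf4 was 20.7 and 25.4 against 6.45 and 7.67 RPKM. The 5 primed epiblast markers summed to 133 and 94.7 RPKM in replicate 1 and to 247 and 187 RPKM in replicate 2. Pou3f1 was 4.68 and 3.60 against 13.0 and 10.9 RPKM. Among ESC libraries, Trh was high in those rich in naive markers and Enpp2 in those rich in primed markers. Same-numbered ESC libraries deviated together over 11956 genes (r = 0.89), so the split is not particular to these genes. NPCs were mixed. Their naive sum was highest after Med26 siRNA (29.8 and 28.0 RPKM), where Trh was lowest. After Cbx3 siRNA their primed sum and Enpp2 were both lower than in control. The part of cell state in these differences was not tested. The 9 feeder fibroblast markers summed to 49.8 and 62.3 RPKM in replicate 1 and to 74.8 and 68.9 RPKM in replicate 2.

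**Figure D3:**
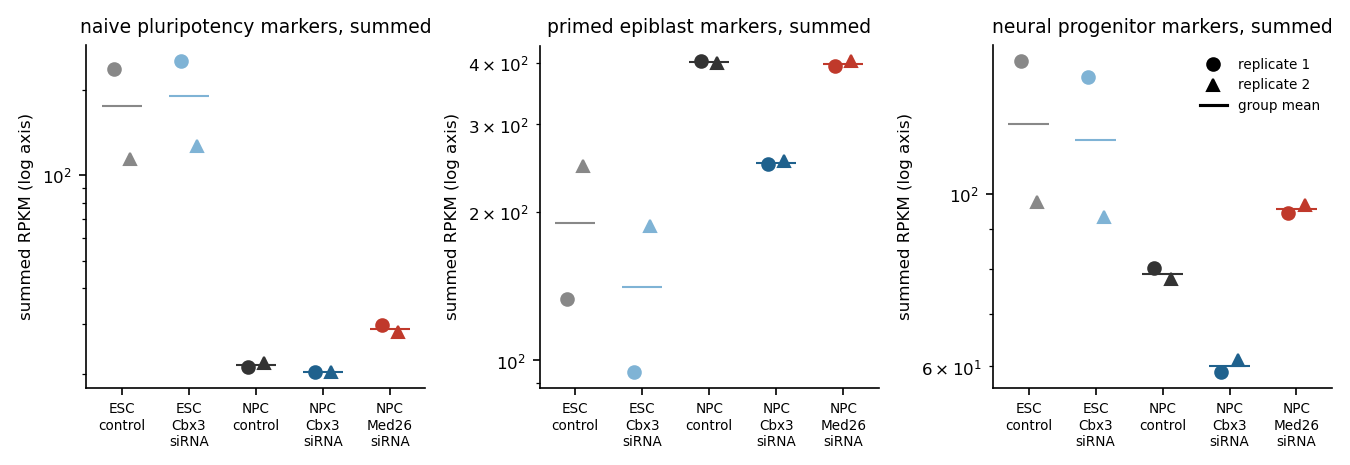
Summed RPKM of the naive pluripotency, primed epiblast and neural progenitor markers in each library, on log axes, by group. Circles are replicate 1, triangles replicate 2 and lines group means; ESC replicate 1 holds more naive and ESC replicate 2 more primed marker RNA, and the progenitor sum is lower after Cbx3 siRNA (59.0 and 61.1 RPKM) and higher after Med26 siRNA (94.5 and 96.7 RPKM) than in NPC control.

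Between the control groups, Enpp2 was higher in NPCs than in ESCs. It rose from 3.23 to 23.1 RPKM, a ratio of 7.16 and a log2 difference of 2.64 (standard error 0.40, 95% interval 1.70 to 3.57, limma adjusted p = 0.00728). It was the 5th largest rise of the 11956 genes, and both NPC libraries lay above both ESC libraries. The NPC control libraries also helped to choose the gene, and the standard error, pooled over all 10 libraries, understates the ESC spread. The call was lost without NPC control replicate 1 or 2 (adjusted p = 0.0626 and 0.0609), with log2 differences of 2.70 and 2.58. Of all genes, 16.0% passed.

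Trh did not separate the cell types. Its NPC control libraries, at 50.4 and 55.5 RPKM, lay between the ESC control libraries at 36.9 and 110 RPKM. The log2 difference was -0.27 (standard error 0.86, 95% interval -2.26 to 1.72, adjusted p = 0.852), and it was 0.51 without ESC control replicate 1.

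Ordered by group mean, Trh ran from ESC control (73.5 ± 52 RPKM) and ESC Cbx3 siRNA (71.3 ± 78 RPKM) through NPC control to NPC Cbx3 siRNA and NPC Med26 siRNA. The first 3 groups in this order overlapped, and the last pair did not pass the test of their difference. Enpp2 ran from NPC control through NPC Cbx3 siRNA and NPC Med26 siRNA to ESC control and ESC Cbx3 siRNA. The last 2 of these overlapped.

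The 2 genes did not share a profile over the series. Across the 10 libraries, their log2(RPKM + 1) values correlated at r = -0.357 (Pearson), as a description of 10 points that share groups and cultures. The 6 genes most like Trh were Mkrn3 (r = 0.967), Ssbp4 (0.967), Mettl25 (0.964), Sephs2 (0.960), D5Ertd579e (0.957) and Rwdd2b (0.952). Sephs2, which makes the selenium donor for selenoproteins, had group means of 83.2 RPKM in ESC control, 75.1 RPKM in NPC control and 67.7 and 64.6 RPKM in the NPC knockdowns, a far narrower range than Trh. The ESC libraries were part of this choice. In them Ssbp4 stood at 24.7 and 19.8 RPKM in control and at 22.4 and 11.9 RPKM with Cbx3 siRNA.

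The 6 genes most like Enpp2 were Sv2a (r = 0.985), Tub (0.981), Blvrb (0.981), Slc45a1 (0.980), Lrfn4 (0.979) and Khk (0.977). Sv2a, a synaptic vesicle glycoprotein gene, had means of 3.81 RPKM in NPC control, 2.69 RPKM with Cbx3 siRNA and 2.13 RPKM with Med26 siRNA, against 1.56 RPKM in ESC control. Blvrb, a biliverdin reductase gene, was 59.6, 47.0 and 43.7 RPKM in the same NPC groups and 32.9 RPKM in ESC control. Khk, the first enzyme of fructose use, was 6.82, 5.99 and 5.14 RPKM and 3.38 RPKM. The order of these groups was that of Enpp2, as is likely for genes picked by their likeness to it in the same libraries. The steps were smaller.

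**Figure D4:**
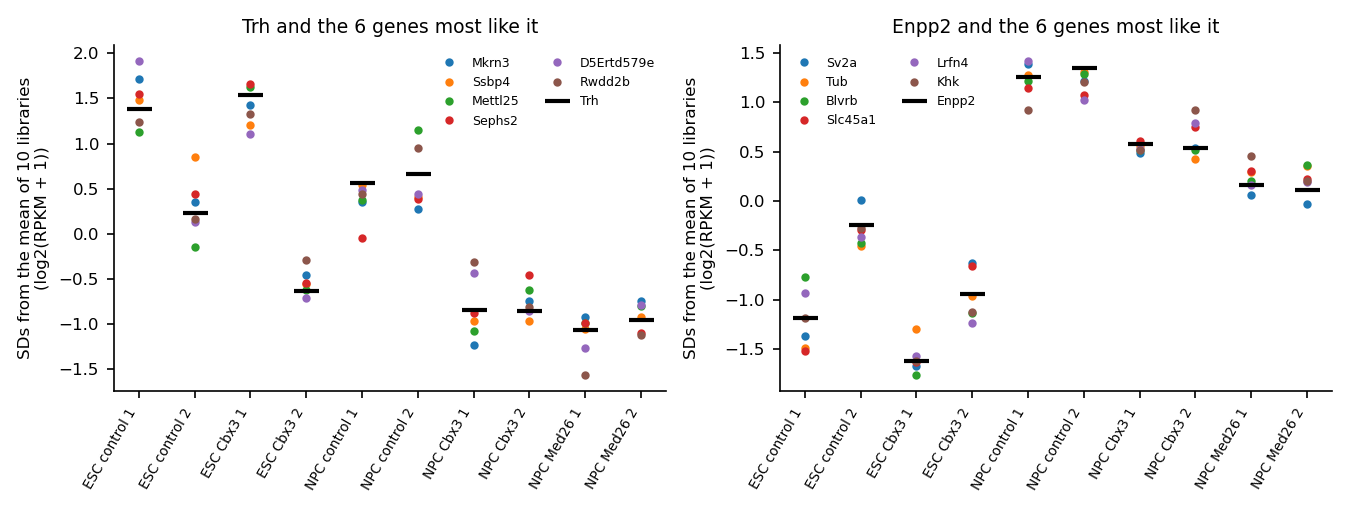
Profiles of Trh (left) and Enpp2 (right) with the 6 genes whose log2(RPKM + 1) correlates best with each over the 10 libraries, as SDs from each gene's own mean. Black bars are Trh or Enpp2 and coloured dots the other genes; r is at least 0.952 on the left and 0.977 on the right.

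Of 15 genes for TRH maturation, receptors and breakdown, 7 passed the filter on low values. The receptor genes Trhr and Trhr2 and the thyrotropin gene Tshb were listed at 0 in all 10 libraries, and the TRH-degrading ectoenzyme gene Trhde did not exceed 0.0153 RPKM. The cytosolic peptidase genes Prep and Pgpep1, whose products can cleave TRH, spanned 24.9 to 38.2 and 3.57 to 8.34 RPKM over the 10 libraries, and neither passed after either siRNA. Of the maturation enzymes, Pcsk2 did not exceed 0.242 RPKM. Pcsk1 was 0.310 and 0.463 RPKM in ESC control and 1.07 and 1.36 RPKM in NPC control. It rose between these groups (log2 difference 0.67, adjusted p = 0.0173), a call lost without ESC control replicate 1 or either NPC control library (adjusted p up to 0.124). Pcsk1 stayed under 1 RPKM in every ESC library, so it passed the filter only through NPC libraries, where it was higher. Cpe (10.9 RPKM in NPC control), Pam (4.23 RPKM) and the glutaminyl cyclase paralog Qpctl (1.36 RPKM) were measured in every library. After Cbx3 siRNA Pcsk1 (-0.13, limma adjusted p = 0.410), Cpe (0.07, adjusted p = 0.613) and Pam (0.22, adjusted p = 0.122) did not pass. After Med26 siRNA none of the 7 tested genes of this list passed, beside 13.4% of all genes.

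Of those 7 genes, 1 rose and 0 fell after Cbx3 siRNA (14.3%, beside 13.1% of all genes), and the list's median log2 changes were 0.07 and -0.07 after Cbx3 and Med26 siRNA, beside 0.007 and -0.001 over all genes tested. The gene that rose was the convertase gene Furin (0.37, adjusted p = 0.0387), whose call was lost without any 1 of the 6 libraries (adjusted p from 0.0642 to 0.168). Furin was higher after Cbx3 than after Med26 siRNA (0.64, adjusted p = 0.00641), and that held without any 1 library.

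Genes of thyroid hormone action were measured beside Trh. Thrb, the receptor best known for repressing Trh, did not exceed 0.0646 RPKM, while Thra was 3.50 and 2.49 RPKM in the control NPCs, 3.53 and 3.09 RPKM after Cbx3 siRNA and 2.00 and 1.77 RPKM after Med26 siRNA. Thra did not pass after either (0.12, adjusted p = 0.610, and -0.46, adjusted p = 0.0736), and was higher after Cbx3 than after Med26 siRNA (0.58, adjusted p = 0.033), a call lost without any 1 of those 4 libraries. Of 10 tested genes of this list, 0 passed after Cbx3 siRNA (limma, adjusted p under 0.05), beside 13.1% of all genes, and 1 rose and 1 fell after Med26 siRNA (20.0%, beside 13.4%). Klf9, a thyroid hormone responsive factor, rose after Med26 siRNA from 20.6 to 29.8 RPKM (0.51, adjusted p = 0.00607), a call lost without Med26 siRNA replicate 1 (adjusted p = 0.0552). Rxra, the retinoid X receptor partner, fell (-0.36, adjusted p = 0.0492), and its call was lost without any 1 library. The list's medians were 0.04 and 0.06. Dio3, the deiodinase that inactivates thyroid hormone, was higher in NPC than in ESC control (1.67 against 0.337 RPKM, log2 difference 1.0, adjusted p = 0.00773), a call lost without either NPC control library (adjusted p up to 0.0683). Dio3 too was under 1 RPKM in every ESC library and passed the filter only through NPC libraries.

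Of 13 transcription factor genes of TRH neurons and of Trh itself, 3 were tested. Sim1 did not exceed 0.0833 RPKM, Otp 0.0629 RPKM and Pou3f2 0.172 RPKM in any library, and Nkx2-1 was listed at 0 in all. Stat3, through which leptin acts on Trh, was 3.23 and 2.89 RPKM in the control NPCs, 6.05 and 6.64 RPKM after Cbx3 siRNA and 5.59 and 5.17 RPKM after Med26 siRNA. It rose after both (0.85, adjusted p = 0.00403, and 0.65, adjusted p = 0.00953), while Trh was lower after both. The Cbx3 call held without any 1 library, and the Med26 call was lost without NPC control replicate 2 or Med26 siRNA replicate 1 (adjusted p up to 0.0732). Stat3 was higher in ESC control, at 11.3 and 11.1 RPKM, than in NPC control (log2 difference of NPC minus ESC -1.59, adjusted p = 0.000449), which held without any 1 of the 10 libraries. Of the 3 tested genes of this list, 1 rose after Cbx3 siRNA and 2 after Med26 siRNA (33.3% and 66.7%, beside 13.1% and 13.4% of all genes), with medians of 0.27 and 0.54. Arnt2, the dimer partner of Sim1, was the other (0.54 after Med26 siRNA, adjusted p = 0.0386), and it lost its call without either NPC control or either Med26 siRNA library.

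Trh and Calca were the neuropeptide genes of highest level. Of 32 neuropeptide precursor and secretory granule genes, 10 were tested, and the highest level in NPC control after Trh was that of Calca, the calcitonin gene, at 19.4 RPKM. Calca was above Trh in 5 of the 10 libraries, all 4 NPC knockdown libraries and ESC Cbx3 siRNA replicate 2 (16.8 against 15.9 RPKM). Sst, Npy, Cck, Vip, Crh, Avp and Gnrh1 did not exceed 0.396 RPKM in any library. After Cbx3 siRNA 2 of the 10 rose and 0 fell (20.0%, beside 13.1% of all genes; median 0.15), and after Med26 siRNA 0 rose and 1 fell (1 of 10, beside 13.4%; median -0.07). Vgf, a granule protein and peptide precursor gene, rose from 4.29 to 8.12 RPKM after Cbx3 siRNA (0.79, adjusted p = 0.00601), and the call held without any 1 library. It was 4.36 RPKM after Med26 siRNA (0.02, adjusted p = 0.892), and the difference between the siRNAs passed (0.77, adjusted p = 0.00525). Gal, the galanin gene, went from 0.353 to 1.07 RPKM with Cbx3 siRNA (0.62, adjusted p = 0.0232), a call lost without NPC control replicate 1 or either Cbx3 siRNA library (adjusted p up to 0.0992). Gal passed the filter on low values only through the NPC Cbx3 siRNA libraries, at 1.13 and 1.01 RPKM. Its place among the tested genes thus rests on the group where it was high.

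Relatives of Enpp2 were measured beside it. Enpp3, a nucleotide pyrophosphatase of the same family, was the most abundant member at 37.2 and 36.3 RPKM in NPC control. It was 29.3 and 30.3 RPKM after Cbx3 siRNA (-0.29, adjusted p = 0.0304, a call lost without either NPC control or either Cbx3 siRNA library) and 44.9 and 40.8 RPKM after Med26 siRNA (0.22, adjusted p = 0.0702). Enpp3 was lower after Cbx3 than after Med26 siRNA (-0.51, adjusted p = 0.00525), while Enpp2 was higher, and both differences held without any 1 library. Enpp4 was lower in NPC than in ESC control (-0.81, adjusted p = 0.0103), a call lost without either NPC control library (adjusted p up to 0.0828). Enpp4 was under 1 RPKM in every NPC library and passed the filter only through ESC libraries. Enpp5 did not pass in any comparison, and Enpp1 and Enpp6 did not exceed 0.374 RPKM. Of 3 tested relatives, 0 rose and 1 fell after Cbx3 siRNA (33.3%, beside 13.1% of all genes, median 0.16). None passed after Med26 siRNA (beside 13.4% of all genes, median 0.10).

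LPA receptors were present, led by Lpar6 and Lpar4. Lpar6 was 9.82 and 11.0 RPKM in the control NPCs, 7.04 and 7.17 RPKM after Cbx3 siRNA and 10.4 and 11.5 RPKM after Med26 siRNA. It fell after Cbx3 siRNA (-0.49, adjusted p = 0.0154) and did not pass after Med26 siRNA (0.07, adjusted p = 0.610). The difference between the siRNAs passed (-0.56, adjusted p = 0.00841). Lpar4 was 6.84 and 6.56 RPKM in the control NPCs, 4.14 and 3.67 RPKM after Cbx3 siRNA and 5.93 and 5.22 RPKM after Med26 siRNA. It fell after Cbx3 siRNA (-0.65, adjusted p = 0.00923) and did not pass after Med26 siRNA (-0.23, adjusted p = 0.148). Without single libraries of the control or Cbx3 groups these 2 falls did not always pass (adjusted p up to 0.0624 for Lpar4 and 0.0788 for Lpar6), and the siRNA difference of Lpar6 was lost without Med26 siRNA replicate 2 (adjusted p = 0.0502). Lpar1 (1.25 RPKM in NPC control) and Lpar2 (3.69 RPKM) did not pass after either siRNA, and Lpar3 did not exceed 0.154 RPKM.

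Among genes that make or remove LPA, Agpat3, an acyltransferase that consumes it, rose after Cbx3 siRNA from 12.5 to 20.4 RPKM (0.67, adjusted p = 0.00296) and not detectably after Med26 siRNA (-0.06, adjusted p = 0.566). The rise and the difference between siRNAs (0.72, adjusted p = 0.00221) held without any 1 library. Liph, a phospholipase that makes LPA from phosphatidic acid, was lower in NPC than in ESC control (0.686 against 3.14 RPKM, log2 difference -1.29, adjusted p = 0.00266), the opposite direction to Enpp2, and this held without any 1 library. Liph was under 1 RPKM in every NPC library, so it passed the filter, and entered the counts below, only through ESC libraries. Plpp3, a phosphatase that removes LPA, was also lower in NPC control (1.20 against 4.77 RPKM, -1.34, adjusted p = 0.0134), a call lost without either NPC control library (adjusted p up to 0.0927). Of the 13 tested genes of the LPA list, 1 rose and 2 fell after Cbx3 siRNA (23.1%, beside 13.1% of all genes, median -0.03). None passed after Med26 siRNA (beside 13.4%, median -0.05). Between the control groups, 3 were higher and 3 lower in NPCs than in ESCs (46.2%, beside 16.0% of all genes, median 0.26).

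**Figure D5:**
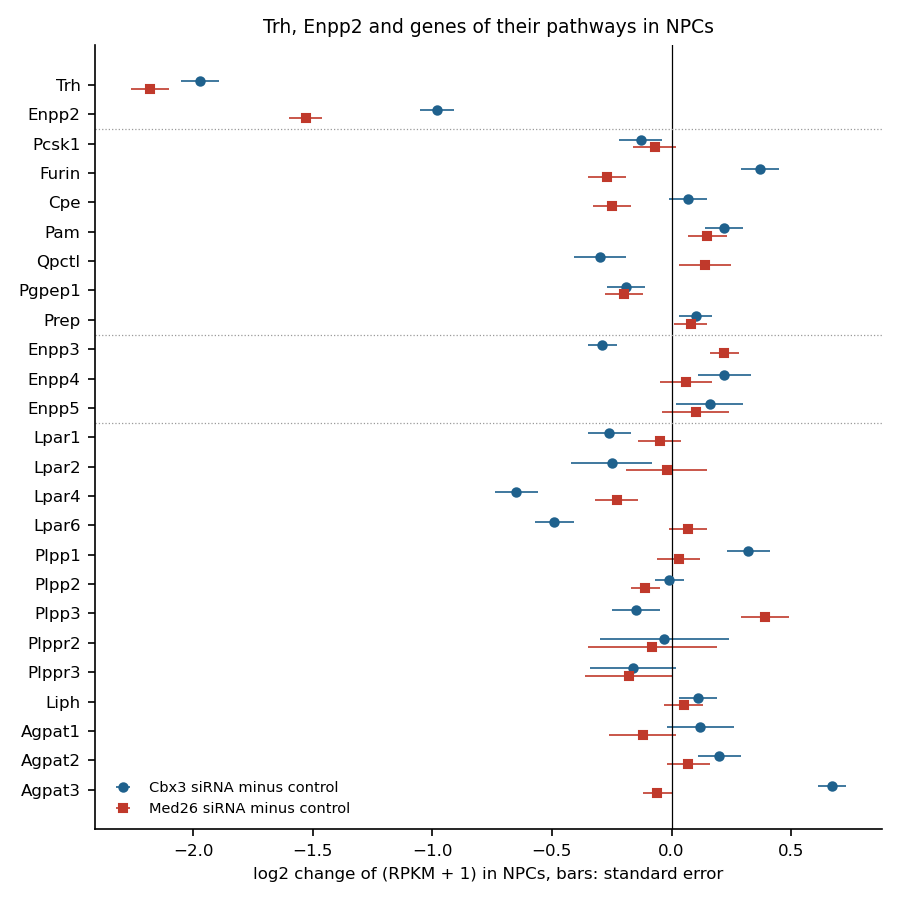
Log2 change of (RPKM + 1) in NPCs after Cbx3 siRNA (blue circles) and Med26 siRNA (red squares), each against control, for Trh, Enpp2 and the tested genes of the TRH, ENPP and LPA lists; bars are standard errors. Trh and Enpp2 lie at -0.98 or below, and the listed genes lie between -0.65 and 0.67.

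Genes that handle the substrate and product of autotaxin passed in both directions after Med26 siRNA. Of 11 tested genes for lysophosphatidylcholine and choline, 2 rose and 0 fell after Cbx3 siRNA (18.2%, beside 13.1% of all genes; median 0.14), and 2 rose and 2 fell after Med26 siRNA (36.4%, beside 13.4%; median 0.03). Lpcat1, which reacylates lysophosphatidylcholine, rose after Cbx3 siRNA (0.36, adjusted p = 0.0194) and fell after Med26 siRNA (-0.36, adjusted p = 0.0219). Either call was lost without some single libraries (adjusted p up to 0.0974 and 0.110), and the difference between the siRNAs held without any 1 (0.72, adjusted p = 0.00249). The choline transporter gene Slc44a1 rose after both (0.34 each, adjusted p = 0.0211 and 0.0222), with both calls lost without any 1 of the libraries compared. The other calls after Med26 siRNA were Slc44a2 (0.44, limma adjusted p = 0.013) and Chka (-0.3, limma adjusted p = 0.0309). They were likewise lost without any 1 of the libraries compared.

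In the sphingosine 1-phosphate list, 1 of 4 tested genes rose after Cbx3 siRNA (25.0%, beside 13.1% of all genes, median 0.27). None passed after Med26 siRNA (beside 13.4% of all genes, median 0.05). The one that rose was Sgpl1, the lyase that breaks sphingosine 1-phosphate down (16.5 to 25.2 RPKM, 0.58, adjusted p = 0.00464), which held without any 1 library.

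State markers in NPCs are given beside Trh and Enpp2. The neural progenitor genes Pax6 and Sox1 had means of 3.41 and 8.76 RPKM in control NPCs, beside 1.39 and 5.51 RPKM in control ESCs. Pax6 did not pass (limma adjusted p = 0.0534). Sox2 was lower in control NPCs, at 29.8 against 102 RPKM (limma adjusted p = 0.014). Of 5 tested progenitor markers, 2 were higher and 1 lower in NPC than in ESC control, beside 16.0% of all genes. The whole list summed to 148 and 97.7 RPKM in ESC control. The 7 neural progenitor markers, of which Sox2 and Nes gave most of the RNA and Hes5 and Fabp7 stayed under 1 RPKM, summed to 80.2 and 77.7 RPKM in the control NPCs, 59.0 and 61.1 RPKM after Cbx3 siRNA and 94.5 and 96.7 RPKM after Med26 siRNA. Of the 5 tested, 3 fell after Cbx3 siRNA and 1 rose after Med26 siRNA, beside 13.1% and 13.4% of all genes in either direction. The naive markers summed to 21.1 and 21.9 RPKM in the control NPCs, 20.3 and 20.4 RPKM after Cbx3 siRNA and 29.8 and 28.0 RPKM after Med26 siRNA. The primed markers, mostly Dnmt3b, summed to 403 and 399, 249 and 253, and 393 and 403 RPKM. Of the 7 naive markers, all tested, 0 passed after Cbx3 siRNA and 4 rose after Med26 siRNA. Of the 5 primed markers, 2 fell after Cbx3 siRNA and 1, Fgf5, rose after Med26 siRNA (0.52, limma adjusted p = 0.0216). These counts stand beside the same 13.1% and 13.4% of all genes. The part of these markers in the levels of Trh and Enpp2 was not tested.

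The 4 RefSeq rows of Enpp2 carry nearly the same value, since alternative transcripts share most of their reads. Within 1 library they differed by at most 5.99%. Their log2 differences from control were -0.97 or -0.98 after Cbx3 siRNA and -1.52 or -1.53 after Med26 siRNA, so the table does not tell the isoforms apart. The annotated Enpp2 locus also shares 823 bases with Gm26684, a long noncoding RNA on the other strand (GENCODE M21). Whether counting used strand is not stated, so reads of the pair cannot be told apart there. Trh has 1 row, and no annotated gene overlaps it.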

How the data were processed

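RNA from 10 libraries was sequenced after Trizol extraction and TruSeq library preparation, per the labels' protocols. The authors deposited RPKM values per RefSeq accession and library, per the file headers. Per the submitters' processing notes, TopHat2 2.08 and mm9 were used. Which counter, annotation release and strand setting made the values is not stated.

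Of 35860 rows, 99.07% matched a symbol in the RefSeq table of GRCm38.p6, and 326 unmatched accessions kept their own name. The row with the highest mean stood for a gene. The 11956 genes that reached 1 RPKM in 2 or more libraries were fitted as log2(RPKM + 1) by limma 3.58.1 (R 4.3.3), using a mean-variance trend, two-sided tests and Benjamini-Hochberg adjustment over all genes at 0.05. This scale understates changes of low genes. NPC comparisons used the 6 NPC libraries (3 residual degrees of freedom), the others all 10 (5). The tests were checked on simulated data.

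RPKM values are not counts. RPKM times transcript length fell on steps, of which 64.2% to 70.0% lay within 0.1 reads of a whole number, too few to recover reads. Intervals cover the spread between libraries, pooled over the libraries fitted. In fits of all 10 libraries, Trh and Enpp2 were less spread between NPC than between ESC replicates. Their intervals and p-values there thus understate the ESC spread.

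The genes, lists and fits were chosen with earlier results of these data known. Named were Trh, Enpp2, the siRNA targets, listed genes that passed or are needed by the pathway, the 6 genes most correlated with each gene, and the 10 with the largest falls after both siRNAs. The result of 1 further gene list is not reported here.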

Additional observations from a re-analysis of the deposited data

How the results depend on the processing

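The falls of Trh and Enpp2 in NPCs, which chose the genes, kept their direction under each alternative run. Each NPC knockdown library lay below both NPC control libraries, so leaving out 1 library could not change the direction. The ranges without any 1 library were -2.04 to -1.90 for Trh and -1.03 to -0.92 for Enpp2 after Cbx3 siRNA. After Med26 siRNA they were -2.25 to -2.11 and -1.58 to -1.47. A pseudocount of 0.1 gave -2.04 for Trh after Cbx3 siRNA and -1.64 for Enpp2 after Med26 siRNA, and summing the rows of a gene gave -1.62 for the latter. Without a filter on low values, which tests more genes, 876 genes passed after Cbx3 siRNA in NPCs, 611 after Med26 siRNA, 1325 between the siRNAs, 2 after Cbx3 siRNA in ESCs and 4 for the difference of the Cbx3 effects. With all 10 libraries in the fit the NPC counts were 1, 15 and 120, and the Enpp2 difference between the siRNAs was 0.55 (limma adjusted p = 0.644). The log2 differences were unchanged in that fit, which pools the spread of the ESC libraries with that of the NPC libraries.

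Same-numbered libraries deviated together (r from 0.42 to 0.46 in NPCs and 0.89 in ESCs, over 11956 genes), but the labels do not say what a number marks. With the replicate block, 3495, 3705 and 4234 genes passed in the NPC comparisons, 813 in ESCs, 6912 between NPC and ESC control and 6 for the difference of the Cbx3 effects. In that paired fit Trh differed between the siRNAs by 0.21 (adjusted p = 0.0298) and Enpp2 differed in ESCs by -0.75 (adjusted p = 0.00885).

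Without any 1 library, the counts ran from 391 to 1063 after Cbx3 siRNA in NPCs, 164 to 1148 after Med26 siRNA, 560 to 1672 between the siRNAs, 0 to 1 in ESCs and 185 to 2699 between NPC and ESC control. Trh ran from -1.94 to 0.98 after Cbx3 siRNA in ESCs, changing sign (0.29 without control replicate 1), and from -1.04 to 0.51 between NPC and ESC control. Enpp2 ran from 2.02 to 3.26 in the latter. The Cbx3 effect in NPCs minus that in ESCs ran from -2.94 to -0.02 for Trh and from -0.85 to 0.39 for Enpp2, which was 0.21 without ESC Cbx3 siRNA replicate 2 and 0.07 at a pseudocount of 0.1. Requiring 1 RPKM in every library gave no Enpp2 value in fits with ESCs, where 1 library held 0.699 RPKM. With 2 libraries a group, wide ESC intervals limit what these comparisons can show.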
